A study of Mus musculus with 9 samples.

Results

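Type I interferon-stimulated genes (ISGs) were examined in mandibles of wild-type (WT) mice and of mice labelled *FcγRIIB*-/-, a model of systemic lupus erythematosus (SLE). The 34 ISGs were chosen by gene symbol, and all 34 were found among the 27179 genes of the count table. RNA came from whole mandibles with their teeth, and the poly(A) fraction of each mouse was sequenced. The mice were of the C57BL/6 strain and 6 months old, 5 of them WT and 4 labelled *FcγRIIB*-/-, a line that lacks the inhibitory receptor for IgG in all its cells. The study's methods describe males, while the sample labels give no sex. The labels name no treatment, and they list each library as a separate sample, called a mouse below.

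Type I interferons bind a receptor made of *Ifnar1* and *Ifnar2*, whose kinases *Jak1* and *Tyk2* phosphorylate STAT proteins such as *Stat2*. With *Irf9* these form a complex that binds the interferon-stimulated response element (ISRE) in the promoters of ISGs. The products of ISGs detect viral RNA, block its translation, degrade it or hold virus particles at membranes. A raised level of ISGs in blood cells is a known feature of many patients with SLE, and the comparison of the genotypes shows whether it was seen in the jaw of this model.

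Library totals lay between 21453880 and 28991631 counts. *Fcgr2b*, the targeted gene, did not fall with the knockout label. WT mice had 577, 954, 442, 630 and 529 of its counts, and those labelled *FcγRIIB*-/- had 757, 562, 628 and 634. The difference on the log2 scale was 0.21 with a standard error (SE) of 0.20 (adjusted p = 0.442 in edgeR's quasi-likelihood test), and without WT replicate 2 it was 0.46 (adjusted p = 0.0131). Which of its exons gave the reads cannot be seen in a table by gene, and every direction below is between libraries by their labels. The tissue label was met by its markers, since the enamel gene *Amelx* was at 7275 CPM (counts scaled by the effective library size) on average in WT. Markers of marrow cells differed between the groups. All 14 neutrophil markers and all 9 erythroid markers tested were lower in the libraries labelled *FcγRIIB*-/-, whereas 5 of 10 skeletal muscle markers were higher and none lower. Of all tested genes, 19.3% were lower and 14.0% higher. In bulk tissue, fewer cells of a type and less RNA per cell cannot be told apart.

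To show what the members share in sequence, promoters were read from RefSeq for GRCm38.p6, the build that mm10 names, from 250 bases before to 50 bases after each annotated start. A promoter was found for 25 of the 34 ISGs, and *Dhx58*, *Zbp1*, *Oas2*, *Mx1*, *Mx2*, *Usp18*, *Ifi27l2a*, *Rtp4* and *Parp14* had no entry. The core of the ISRE was searched as GAAANNGAAA on both strands, where its reverse complement reads TTTCNNTTTC and where matches may overlap. It was present in 14 of the 25 (56.0%), against 3.99% of 27025 genes with a promoter entry. By direction of change, it was present in 6 of 8 ISGs that were higher, 2 of 3 that were lower and 6 of 14 that did not pass. It is not particular to the members. Of the lists described below, 13 of 31 further type I ISGs with a promoter had it (41.9%). So did 9 of 16 genes that respond mainly to IFN-gamma (56.2%). The letters of the gamma-activated sequence of IFN-gamma targets, TTCNNNGAA, were in 6 of the 25 promoters and in 9.55% of all. A match is a description of the letters only.

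The stretches below are from promoters of ISGs that rose, fell or did not pass, so that the same letters can be seen in each. They are written 5′ to 3′ on the strand of the gene and end before the annotated start, with matches to the ISRE core in capitals. The stretches of *Ifit3* (chr19:34583353-34583436, plus strand) and *Ifit3b* (chr19:34607749-34607832, plus strand) are letter for letter the same. That of *Ifit1* (chr19:34640765-34640833, plus strand) holds 2 matches, the nearer ending 76 bases before the start. *Bst2* (chr8:71537567-71537622, minus strand) and *Isg15* (chr4:156200855-156200916, minus strand) hold 2 and 3 overlapping matches. *Rsad2* (chr12:26456543-26456592, minus strand) and *Oas3* (chr5:120777705-120777754, minus strand), both lower in the libraries labelled *FcγRIIB*-/-, hold 1 match each.
Ifit3 (rose): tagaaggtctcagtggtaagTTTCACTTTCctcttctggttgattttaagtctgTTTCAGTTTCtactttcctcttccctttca
Ifit3b (rose): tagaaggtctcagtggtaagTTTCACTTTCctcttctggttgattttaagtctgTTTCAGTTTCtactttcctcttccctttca
Ifit1 (rose): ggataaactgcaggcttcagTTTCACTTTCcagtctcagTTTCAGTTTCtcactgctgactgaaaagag
Bst2 (rose): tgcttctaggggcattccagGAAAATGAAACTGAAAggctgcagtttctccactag
Isg15 (did not pass): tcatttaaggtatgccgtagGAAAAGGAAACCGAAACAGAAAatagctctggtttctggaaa
Rsad2 (fell): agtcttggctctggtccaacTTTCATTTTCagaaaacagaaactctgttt
Oas3 (fell): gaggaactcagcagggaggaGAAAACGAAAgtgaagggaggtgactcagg

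The ISGs did not move together. In the libraries labelled *FcγRIIB*-/-, 11 rose, led by *Ifit1* and *Ifit3* at close to double the WT level, 3 fell (*Oas3*, *Rsad2* and *Cmpk2*), and 20 did not pass. All 34 passed the filter on low counts and were tested, in a fit of edgeR's quasi-likelihood test over 16329 genes with Benjamini-Hochberg adjustment and a threshold of 0.05. The 11 higher ISGs are 32.4% of the members, where 14.0% of all tested genes were higher. The 3 lower ISGs are 8.82%, where 19.3% of all tested genes were lower. Over the members the log2 fold change had a median of 0.16, and over all tested genes of 0.01. This median was 0.04 without WT replicate 3, 0.07 and 0.10 without replicates 2 and 3 labelled *FcγRIIB*-/-, and 0.26 without WT replicate 5. In log2 CPM the genotypes did not overlap in 7 higher ISGs (20.6%, against 12.1% of all tested genes) and in the 3 lower ISGs (8.82%, against 17.5%). Without replicate 1 labelled *FcγRIIB*-/- the first of these counts was 11. DESeq2 called 12 members higher, with *Ifi44* added, and 3 lower, where it called 17.3% and 19.6% of all tested genes.

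**Figure D1:**
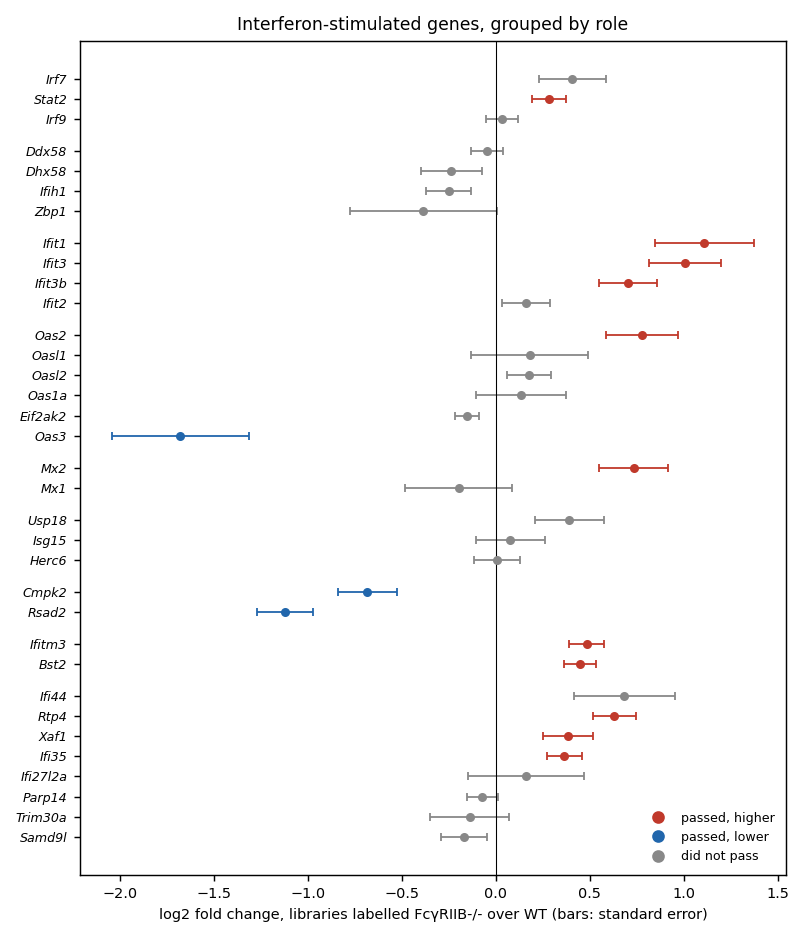
Log2 fold change of each of the 34 ISGs between libraries labelled *FcγRIIB*-/- and WT (x axis, points with SEs), in blocks by role in the order factors, sensors, IFIT, OAS with PKR, Mx, ISG15 pathway, viperin with CMPK2, membrane factors and other members. The 11 genes in red and the 3 in blue passed the test, and their changes lay between -1.68 and 1.11.

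Of the factors that drive ISGs, only *Stat2* passed. *Stat2*, a subunit of the ISRE-binding complex, was at 39.9, 35.9, 35.5, 31.1 and 38.6 CPM in WT replicates 1 to 5 and at 38.3, 44.0, 45.7 and 48.3 CPM in replicates 1 to 4 labelled *FcγRIIB*-/-. The groups overlapped at replicate 1 labelled *FcγRIIB*-/-, which was below 2 WT mice. Its log2 fold change was 0.28 (SE 0.09, adjusted p = 0.0335 in edgeR's test), and the call was lost without WT replicate 3 or 4 or without replicate 2, 3 or 4 labelled *FcγRIIB*-/-, with adjusted p up to 0.0865. *Irf7*, which amplifies the response by inducing further interferon, was at 13.9 ± 3.66 CPM (SD, n = 5 WT mice) and 18.5 ± 2.15 CPM (SD, n = 4 labelled *FcγRIIB*-/-), and did not pass (adjusted p = 0.103 in edgeR's test). Without WT replicate 5 it passed, at a log2 fold change of 0.56 (adjusted p = 0.0255). *Irf9*, the DNA-binding partner in the complex, differed by a log2 fold change of 0.03 (SE 0.09).

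None of the 4 sensors passed, and all 4 had negative log2 fold changes. *Ifih1* encodes MDA5, which detects long double-stranded RNA. It was at 19.5, 19.7, 16.8, 18.3 and 24.0 CPM in WT and at 15.8, 16.2, 19.4 and 14.7 CPM in the libraries labelled *FcγRIIB*-/-. The groups overlapped, and its log2 fold change was -0.25 (SE 0.12, adjusted p = 0.123 in edgeR's test). The others were *Ddx58* (RIG-I, a sensor of RNA ends) at -0.05, *Dhx58* (LGP2, which modulates both) at -0.24 and *Zbp1* (a sensor of Z-form nucleic acid) at -0.39. *Zbp1* had 7.82 CPM in WT replicate 2, and the other mice had 1.77 to 4.09. The summed T and NK cell markers were also highest in WT replicate 2, at 59.8 CPM. So were the summed B-lineage markers (156 CPM) and the summed monocyte and macrophage markers (780 CPM). The part of these cells in the *Zbp1* value was not tested.

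The IFIT genes gave 3 of the 11 higher ISGs. The product of *Ifit1* binds viral RNA that lacks the host's cap methylation and holds it back from translation. *Ifit1* was at 17.9, 8.95, 7.94, 9.95 and 14.7 CPM in WT and at 19.1, 30.1, 34.4 and 19.2 CPM in the libraries labelled *FcγRIIB*-/-. All 4 were above all WT mice, although WT replicate 1 lay close to the lowest of them. The level was 2.16-fold higher (log2 fold change 1.11, SE 0.26, adjusted p = 0.00971 in edgeR's test). *Ifit3* was at 21.4, 15.4, 15.0, 15.9 and 9.14 CPM in WT and at 27.3, 28.7, 35.4 and 32.4 CPM in the libraries labelled *FcγRIIB*-/-. It was 2.01-fold higher with no overlap between the groups (log2 fold change 1.01, SE 0.19, adjusted p = 0.00343 in edgeR's test). WT replicate 5, which was second highest in *Ifit1*, was lowest in *Ifit3*. *Ifit3b* had a log2 fold change of 0.70 (adjusted p = 0.00635). The longest reading frames of *Ifit3* and *Ifit3b* are 99.1% identical, so the split of reads between the pair is uncertain. *Ifit2*, which lies next to *Ifit3*, was at 16.5 ± 1.42 CPM (SD, n = 5 WT mice) and 18.5 ± 3.73 CPM (SD, n = 4 labelled *FcγRIIB*-/-), and did not pass (adjusted p = 0.355).

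Among the 2′-5′ oligoadenylate synthetases, which switch on the degradation of RNA by RNase L, neighbouring genes moved in opposite directions. *Oas2* (chromosome 5 from 120730333 to 120749886) and *Oas3* (120753098 to 120777684) are next to each other in the order of protein-coding genes. *Oas2* was at 4.78, 4.90, 4.66, 4.96 and 6.75 CPM in WT and at 5.85, 9.47, 11.3 and 9.17 CPM in the libraries labelled *FcγRIIB*-/-. Replicate 1 labelled *FcγRIIB*-/- was below WT replicate 5, and the other 3 were above every WT mouse. The log2 fold change of *Oas2* was 0.78 (SE 0.19, adjusted p = 0.0113 in edgeR's test). *Oas3*, the family member with the highest affinity for long double-stranded RNA, was at 5.04, 4.94, 3.28, 4.26 and 11.5 CPM in WT and at 1.51, 1.99, 2.33 and 1.42 CPM in the libraries labelled *FcγRIIB*-/-. All 4 were below every WT mouse, and WT replicate 5 stood above the rest. The level was 3.20-fold lower (log2 fold change -1.68, SE 0.36, adjusted p = 0.00643), and the log2 fold change was -1.25 without WT replicate 5.

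The ratio of *Oas3* to *Oas2* within a mouse was taken because of these values and restates them, so it is given as a description with no test. It was 1.05, 1.01, 0.703, 0.859 and 1.71 in WT and 0.258, 0.210, 0.206 and 0.155 in the libraries labelled *FcγRIIB*-/-. Every mouse labelled *FcγRIIB*-/- was below every WT mouse, by a mean difference of -2.32 on the log2 scale. The remaining family members overlapped between the groups. *Oas1a* had a log2 fold change of 0.13, and *Oasl1* and *Oasl2*, the OAS-like genes of the list, both had 0.18. *Eif2ak2* encodes PKR, the kinase that halts translation on double-stranded RNA, and was at 30.9 ± 1.16 CPM (SD, n = 5 WT mice) and 27.8 ± 1.90 CPM (SD, n = 4 labelled *FcγRIIB*-/-) (adjusted p = 0.0994 in edgeR's test).

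*Mx2* rose and *Mx1* did not pass. The Mx genes encode dynamin-like GTPases against RNA viruses, and RefSeq lists both as transcribed pseudogenes in C57BL/6J, the strain of the reference genome. *Mx2* was at 2.39, 1.89, 2.04, 1.51 and 1.95 CPM in WT and at 2.59, 3.84, 3.26 and 3.34 CPM in the libraries labelled *FcγRIIB*-/-. The groups did not overlap, and the log2 fold change was 0.73 (SE 0.18, adjusted p = 0.0126 in edgeR's test). *Mx1* was at 2.66 ± 0.839 CPM (SD, n = 5 WT mice) and 2.33 ± 0.679 CPM (SD, n = 4 labelled *FcγRIIB*-/-). Both rest on few reads, between 35 and 87 counts for *Mx1* and between 41 and 83 for *Mx2*.

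No gene of the ISG15 pathway passed. *Isg15*, the ubiquitin-like protein that is among the most strongly induced ISGs in many cell types, was at 10.6 ± 2.44 CPM (SD, n = 5 WT mice) and 11.2 ± 2.19 CPM (SD, n = 4 labelled *FcγRIIB*-/-), a log2 fold change of 0.08 (SE 0.18). *Usp18*, which removes ISG15 and restrains the receptor, was at 6.85, 5.62, 3.82, 5.40 and 5.89 CPM in WT and at 5.54, 8.23, 8.43 and 6.79 CPM in the libraries labelled *FcγRIIB*-/-. The groups overlapped, and its adjusted p was 0.125 in edgeR's test at a log2 fold change of 0.39. *Herc6*, the ligase that attaches ISG15 in mice, had a log2 fold change of 0.01.

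*Rsad2* and *Cmpk2*, neighbours on chromosome 12, both fell. *Rsad2* encodes viperin, which makes a nucleotide that ends viral RNA chains, and CMPK2 is a mitochondrial nucleotide kinase that supplies its substrate. *Rsad2* was at 31.4, 34.9, 27.7, 28.7 and 39.4 CPM in WT and at 10.7, 16.1, 16.5 and 16.4 CPM in the libraries labelled *FcγRIIB*-/-. No WT mouse came near the other group, and the level was 2.18-fold lower (log2 fold change -1.12, SE 0.15, adjusted p = 7.22e-04 in edgeR's test). *Rsad2* had the smallest adjusted p of the 34 ISGs. *Cmpk2* was at 11.6, 11.4, 8.33, 11.8 and 14.2 CPM in WT and at 6.69, 7.72, 8.18 and 5.98 CPM in the libraries labelled *FcγRIIB*-/-. WT replicate 3 was barely above the highest of these 4, and the log2 fold change was -0.68 (SE 0.16, adjusted p = 0.00846). The ratio of *Rsad2* to *Ifit1*, also a description of genes picked for their opposite changes, was between 1.76 and 3.90 in WT and between 0.481 and 0.854 in the libraries labelled *FcγRIIB*-/-, a mean difference of -2.26 on the log2 scale.

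**Figure D2:**
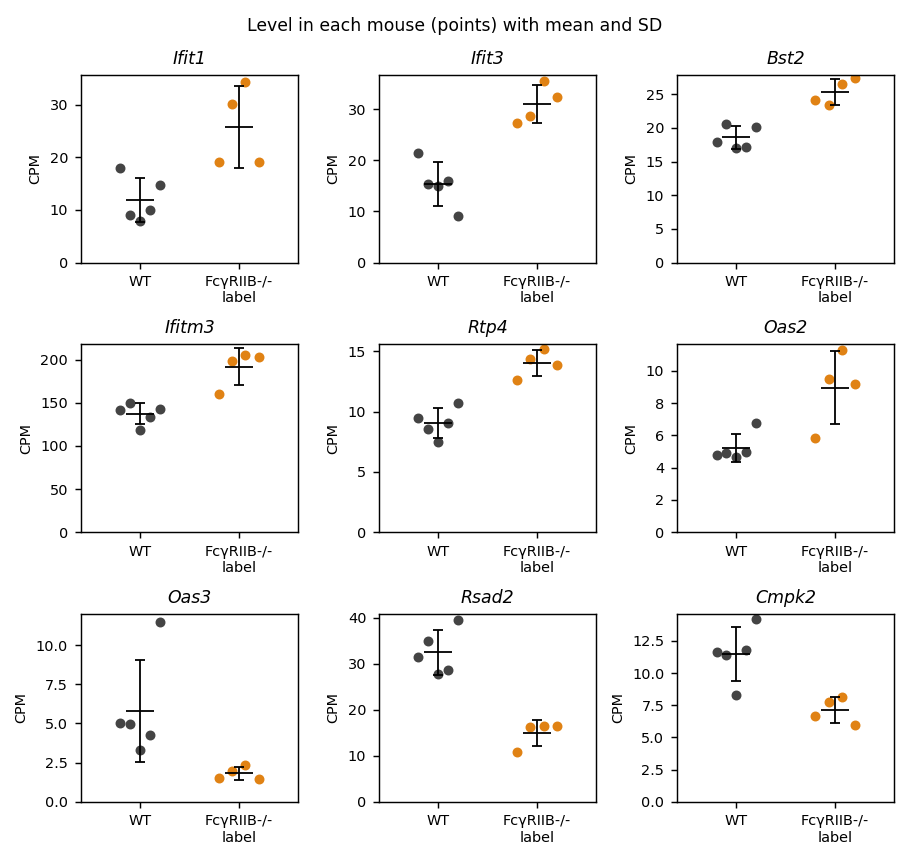
CPM (y axis, from 0) of 9 ISGs in each mouse, with WT in grey, libraries labelled *FcγRIIB*-/- in orange, and bars for the mean and SD. Points of the groups do not overlap in 8 of the panels, and in *Oas2* the lowest mouse labelled *FcγRIIB*-/- (5.85 CPM) was below WT replicate 5 (6.75 CPM).

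Both membrane restriction factors rose. *Bst2* encodes tetherin, which holds budding virions at the cell surface and is also a surface marker of plasmacytoid dendritic cells in mice. It was at 18.0, 20.7, 17.0, 17.2 and 20.2 CPM in WT and at 24.1, 23.4, 26.6 and 27.4 CPM in the libraries labelled *FcγRIIB*-/-, with no overlap. The log2 fold change was 0.45 (SE 0.09, adjusted p = 0.00383 in edgeR's test). *Ifitm3*, which blocks the fusion of virus with endosomes, was at 142, 150, 118, 133 and 143 CPM in WT and at 160, 198, 205 and 203 CPM in the libraries labelled *FcγRIIB*-/-. All 4 were above WT, replicate 1 by the least, and the log2 fold change was 0.48 (SE 0.10, adjusted p = 0.00409).

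Of the other 8 ISGs, 3 rose and 5 did not pass. *Rtp4*, an interferon-induced protein that binds RNA, was at 9.49, 8.55, 7.44, 9.07 and 10.7 CPM in WT and at 12.6, 14.4, 15.2 and 13.9 CPM in the libraries labelled *FcγRIIB*-/-. Its groups did not overlap, at a log2 fold change of 0.63 (SE 0.12, adjusted p = 0.00300 in edgeR's test). *Xaf1*, which promotes apoptosis, was at 8.33, 8.07, 6.28, 6.57 and 8.74 CPM in WT and at 8.55, 10.3, 9.62 and 11.3 CPM in the libraries labelled *FcγRIIB*-/-. The groups overlapped and its call was at the threshold (log2 fold change 0.38, adjusted p = 0.0478). *Xaf1* kept its call only without WT replicate 5 or replicate 1 labelled *FcγRIIB*-/-, and its adjusted p rose as far as 0.116 when single other mice were left out. *Ifi35* had a log2 fold change of 0.36 (adjusted p = 0.0146). *Ifi44* was at 3.60 ± 1.02 CPM (SD, n = 5 WT mice) and 5.78 ± 1.91 CPM (SD, n = 4 labelled *FcγRIIB*-/-), a log2 fold change of 0.68 that missed the threshold (adjusted p = 0.0737) and passed without replicate 4 labelled *FcγRIIB*-/- (adjusted p = 0.0264). *Ifi27l2a*, *Parp14*, *Trim30a* and *Samd9l* had log2 fold changes between -0.17 and 0.16.

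Levels were compared between genes as RPKM, the CPM per kilobase of exons in GENCODE M21. *Ifitm3* stood far above the rest, at 202 RPKM on average in WT and 283 in the libraries labelled *FcγRIIB*-/-. *Ifi27l2a* (29.8 in WT), *Bst2* (23.5) and *Ifi35* (17.6) followed in both groups, and the ranges of *Ifi27l2a* and *Bst2* overlapped within WT. At the other end *Mx1* and *Mx2* were at 0.786 and 0.807 RPKM in WT, with overlapping ranges. *Oas3* moved from place 31 to place 34 of the 34, *Rsad2* from 9 to 19, *Ifit3* from 8 to 5 and *Ifit1* from 17 to 10.

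The mice differed in their overall ISG level in both groups. WT replicate 3 was the lowest WT mouse in 24 of the 34 ISGs and WT replicate 5 the highest in 17. Among the libraries labelled *FcγRIIB*-/-, replicate 3 was the highest in 21 and replicate 1 the lowest in 21. Relative to the WT mean of each gene, the median ISG was at -0.27 on the log2 CPM scale in WT replicate 3 and 0.21 in WT replicate 5, and at -0.02, 0.22, 0.34 and 0.02 in replicates 1 to 4 labelled *FcγRIIB*-/-. The groups overlapped in this median. The summed neutrophil markers were lowest of the WT mice in replicate 3 (1382 CPM) and highest in replicate 5 (3921 CPM), and their part in these levels was not tested. Summed over the 34 ISGs, the level was between 562 and 744 CPM in WT and between 663 and 831 CPM in the libraries labelled *FcγRIIB*-/-.

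**Figure D3:**
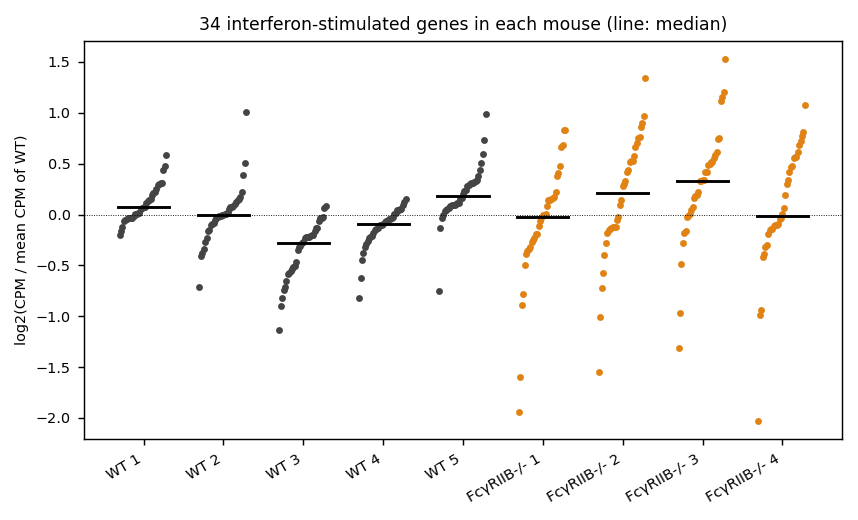
Each of the 34 ISGs in each mouse as log2 of its CPM over the mean CPM of WT (y axis), sorted within each mouse, with WT in grey, libraries labelled *FcγRIIB*-/- in orange and a line at the median. The medians lay between -0.27 and 0.21 in WT and between -0.02 and 0.34 in the mice labelled *FcγRIIB*-/-.

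The interferon genes themselves were at or near 0. Of 21 genes for type I, II and III interferons, 16 had 0 counts in all 9 libraries and none passed the filter, and a count of 0 allows a level of up to 3 counts, or 0.105 to 0.152 CPM depending on the library. *Ifng* had between 1 and 8 counts in WT and between 0 and 2 in the libraries labelled *FcγRIIB*-/-. Counts of *Ifna7*, *Ifne*, *Ifnk* and *Ifnz* were at most 3. For the 16 genes at 0, expression was not detectable at this depth.

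Of 12 genes of the receptor chains and JAK-STAT signalling, 3 fell (25%, against 19.3% of all tested genes) and none rose (against 14.0%). The share that fell was near that of all genes. *Ifnar1* was at 85.7 ± 5.38 CPM (SD, n = 5 WT mice) and 72.5 ± 1.54 CPM (SD, n = 4 labelled *FcγRIIB*-/-), a log2 fold change of -0.24 (adjusted p = 0.0111 in edgeR's test). *Jak2* also fell, by a log2 fold change of -0.26 (adjusted p = 0.0421). *Jak1* had a log2 fold change of -0.22 and did not pass (adjusted p = 0.0784).

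Among 18 genes that sense nucleic acid or induce interferon, 5 fell (27.8%, against 19.3% of all tested genes) and 1 rose (5.56%, against 14.0%). *Irf8*, a factor of dendritic cells and monocytes, fell by 1.10 on the log2 scale (adjusted p = 0.00423 in edgeR's test), and *Tlr9*, the endosomal receptor for DNA, fell by 1.66 (adjusted p = 0.00440). *Samhd1*, which depletes nucleotides, had a log2 fold change of -0.52. *Irf3*, the factor downstream of the cytosolic sensors, rose by 0.33 (adjusted p = 0.00609). *Tlr7* and *Unc93b1*, which carries these receptors to endosomes, were the remaining 2 that fell.

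A second list held 35 type I ISGs that are not among the members. Of 34 tested, 1 was higher (2.94%, against 14.0% of all tested genes) and 7 were lower (20.6%, against 19.3%), and the median log2 fold change was -0.11. Among those that fell, *Trim25* (the ligase that activates RIG-I) had -0.38, *Isg20* (an RNA exonuclease) -0.96 and *Znfx1* (an RNA helicase) -0.30, at adjusted p of 0.00165, 0.00230 and 0.00775 in edgeR's test, and *Tdrd7* alone rose, by 0.32 (adjusted p = 0.0112). Of 20 genes that respond mainly to IFN-gamma, 4 fell (20%, against 19.3% of all tested genes) and 1 rose (5%, against 14.0%). *Ciita*, which drives MHC class II genes, was at 10.7 ± 5.90 CPM (SD, n = 5 WT mice) and 4.16 ± 0.957 CPM (SD, n = 4 labelled *FcγRIIB*-/-) (log2 fold change -1.35, adjusted p = 0.0124), *Tap1* and *Psmb9* both had -0.53, and *Gbp3* rose by 0.44 (adjusted p = 0.0384). These lists share 3 genes, each of which is counted in a pair of them.

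**Figure D4:**
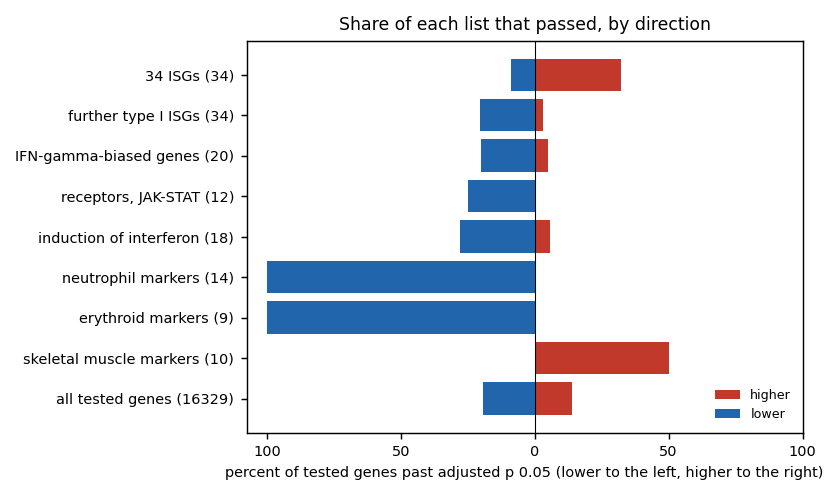
Percent of the tested genes of each list (number in brackets) that passed an adjusted p of 0.05 as lower (blue, left) or higher (red, right) in the libraries labelled *FcγRIIB*-/-. The 34 ISGs had 32.4% higher and 8.82% lower, against 14.0% and 19.3% of all 16329 tested genes.

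Markers of blood cells and of several other cell types differed between the groups. Of all tested genes, 19.3% were lower and 14.0% higher. Summed over the list, the 14 neutrophil markers were between 1382 and 3921 CPM in WT and between 184 and 529 CPM in the libraries labelled *FcγRIIB*-/-, and the 9 erythroid markers between 1864 and 2212 and between 118 and 501. *Ptprc*, the pan-leukocyte gene CD45, had a log2 fold change of -1.16 (adjusted p = 0.0110 in edgeR's test). Of the monocyte and macrophage markers 7 of 13 fell (53.8%), and of the B-lineage markers 8 of 10 (80%). Of the T and NK cell markers 3 of 9 fell (33.3%). None was higher in these lists. Of 6 markers of plasmacytoid dendritic cells, the main source of type I interferon in blood, 4 fell (66.7%), among them *Siglech* (3.67 ± 0.984 CPM, SD, n = 5 WT mice, and 1.15 ± 0.531 CPM, SD, n = 4 labelled *FcγRIIB*-/-), while the *Bst2* transcript rose. *Ly6d*, also among the 4, averaged 181 CPM in WT, far above *Siglech*, and whether its reads came from these cells was not tested. The skeletal muscle sum was between 6713 and 15756 CPM in WT and between 15866 and 27787 CPM in the libraries labelled *FcγRIIB*-/-. Of the osteoclast markers 7 of 9 fell and none rose, and their sum was between 861 and 1224 CPM in WT and between 281 and 524 CPM in the libraries labelled *FcγRIIB*-/-. Of the epithelial markers 7 of 11 fell and 1 rose, with sums of 4038 to 10620 CPM in WT and 4838 to 6118 CPM in the other group. Of 7 fibroblast and adipocyte markers tested, 4 fell and 2 rose, with sums over all 9 listed of 13389 to 20029 CPM and 6459 to 9602 CPM. In the list of osteoblast, osteocyte and tooth markers 3 of 13 rose (23.1%) and 4 fell (30.8%). In the endothelial list 2 of 10 rose (20%) and 1 fell (10%). Both lists lay near the shares of all tested genes. No gene of these marker lists was at 0 in all libraries. The part of cell composition in the changes of the ISGs was not tested.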

How the data were processed

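Poly(A) RNA of whole mandibles from 5 WT mice and 4 mice labelled *FcγRIIB*-/- had been made into directional libraries. Per the labels and the methods, the authors trimmed reads with Trim Galore, aligned them to mm10 with HISAT 02.1.0 and counted them with featureCounts, and the deposited values are raw counts per gene. The annotation, the strand setting and the handling of multiply matching reads are not given in the sources used here, so near copies and overlapping genes are uncertain. The table's 1 column that no sample label names was not used. No batch is given in the labels.

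Counts were analysed in R 4.3.3 with edgeR 4.0.16: filterByExpr (minimum count 10), TMM, the quasi-likelihood test of genotype without covariates and Benjamini-Hochberg adjustment over 16329 genes. Standard errors were taken as the size of the log2 fold change divided by the root of the F statistic. CPM uses TMM-scaled library sizes, and log2 CPM a prior count of 2. DESeq2 1.42.0, the tool of the authors, was an alternative, with other normalizations, a weaker filter, a stricter threshold, a replicate block and each mouse left out. On simulated counts for this comparison (16329 genes, 200 of them moved by 1 log2 unit), edgeR recovered 75.5% with 3.82% false calls. DESeq2 recovered 82% with 12.8% false calls. Recovery of smaller changes, as most of the called ISGs had, was not measured. The simulation also moved far fewer genes than were called in the data, where 14.0% of tested genes were higher and 19.3% lower. Rates of recovery and of false calls in such a setting were not measured. No pair of libraries within a group had near-identical counts. The labels do not say that samples of a group came from separate litters or days, so p-values measure only the spread between these samples, and 0-count limits cover counting error only.

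The members, lists and tests were chosen with earlier results of these data known. Values per mouse are given, within each role, for up to 2 members with the largest change past the threshold, or, where none passed, for the member with the smallest p. From each other list up to 4 genes with the smallest p are named, and genes outside these rules were named after their values were seen. Some results are not reported here.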

Additional observations from a re-analysis of the deposited data

Results flagged for a closer look

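In 5 of 68 groups of values of the 34 ISGs, the highest or lowest mouse stood apart from the rest by Dixon's criterion, where chance gives about 3.4. WT replicate 5 had 6.75 CPM of *Oas2* (the other WT mice 4.66 to 4.96) and 11.5 CPM of *Oas3* (3.28 to 5.04), so the same mouse stood apart in a pair of neighbouring genes that changed in opposite directions. Replicate 1 labelled *FcγRIIB*-/- had 10.7 CPM of *Rsad2* (the others of its group 16.1 to 16.5) and 160 CPM of *Ifitm3* (198 to 205). Replicate 3 labelled *FcγRIIB*-/- had 40.0 CPM of *Parp14* (34.5 to 35.1).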

How the results depend on the processing

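The 3 lower ISGs passed in every alternative apart from DESeq2 with the study's limit of a fold below 0.5, where 2 did. With library size only *Eif2ak2* was a further lower ISG, to make 4, where 3781 of 16329 tested genes were lower, against 3144 in the main fit. The number of higher ISGs was 12 with DESeq2, 9 with library size only, 10 with every gene of at least 1 count, 8 with the replicate block and 6 at an adjusted p of 0.01. The number of all genes called higher changed too. Of 16329 tested genes it was 2289 in the main fit, 2831 with DESeq2, 1309 with library size only and 1594 with the block. With every gene of at least 1 count it was 2001 of 21948, and at 0.01 it was not taken. With each mouse left out, the number of higher ISGs lay between 9 and 12, where between 1781 of 16504 and 2292 of 16211 tested genes were higher. Without WT replicates 2 and 5 together, an alternative added after the data were seen, it was 12, where 1479 of 16359 were higher. *Ifit1*, *Ifit3*, *Ifit3b*, *Oas2*, *Bst2*, *Ifitm3*, *Ifi35* and *Rtp4* passed at 0.05 with each other normalization, with the weaker filter, in DESeq2, with the block and with each mouse left out. The block took away the calls of *Stat2*, *Xaf1* and *Mx2*. The labels do not say that a number marks a pair of mice, and the deviations of same-numbered mice had correlations of 0.0969, 0.0276, -0.114 and -0.0739.

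With each mouse left out, ISGs higher without overlap numbered between 7 and 11, the median log2 fold change of the members lay between 0.04 and 0.26, and that of *Fcgr2b* between 0.126 and 0.459. The members' median was 0.09 with library size only and 0.25 with the replicate block. Changes of sign were seen in members that did not pass. With library size only, *Irf9* was at -0.0395 and *Herc6* at -0.0649. With 1 mouse left out, the ranges were -0.0115 to 0.0872 for *Irf9*, -0.0799 to 0.0302 for *Ddx58*, -0.554 to 0.0456 for *Zbp1*, -0.0084 to 0.312 for *Oas1a*, -0.0449 to 0.397 for *Oasl1*, -0.0601 to 0.191 for *Isg15*, -0.118 to 0.0712 for *Herc6* and -0.267 to 0.0368 for *Trim30a*. The causes were not tested. Members with few counts, such as *Mx1*, *Mx2*, *Oasl1* and *Oas3*, are limited by depth.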
